A study of Mus musculus with 6 samples.

Results

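The genes described here are receptors and adaptors with which cells sense microbes: Toll-like receptors, co-receptors for lipopolysaccharide (LPS, a component of the outer membrane of gram-negative bacteria), the adaptors and kinases below them, NOD receptors, inflammasome sensors, RNA sensors, C-type lectin receptors, and inhibitors of the pathway. They were chosen by symbol from a list of 45 genes, all of which were found among the 27546 genes of the deposited table. RNA-Seq was done on colon tissue, dissected from the distal colon, of 3 Gm31629-/- mice and 3 WT littermates of the C57BL/6 strain, with 1 library per mouse. Gm31629 is a long noncoding RNA gene, and the Gm31629-/- mice carry a knockout of it for which the methods name no restriction to a cell type. Mice of both groups were 8 weeks old, drank 3% dextran sulfate sodium (DSS), a polymer that injures the colonic epithelium, over 7 days, and were sacrificed on day 8, so no uninjured colon is part of the comparison. The question was how the sensing genes differ between Gm31629-/- and WT colon after DSS.

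Toll-like receptors bind microbial products outside the cell or in endosomes and pass the signal through adaptors with a TIR domain, mainly MYD88 and TICAM1, to IRAK kinases and then to NF-κB and IRF transcription factors. NOD1 and NOD2 bind fragments of peptidoglycan in the cytosol, and inflammasome sensors join the adaptor PYCARD (also known as ASC) to caspase-1, which matures IL-1β and IL-18. In the colon these genes are used both by the epithelium, which faces the bacteria, and by macrophages, neutrophils, and dendritic cells below it.

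Sensing genes went in both directions. A mean of at least 0.5 FPKM (fragments divided by exon length and by library depth) over the 6 mice was required for testing, which 43 of the 45 genes and 14657 of all genes met. Tlr11 and Ticam2 did not. With limma on log2(FPKM + 1), 15 of the 43 were higher in Gm31629-/- mice at a Benjamini-Hochberg adjusted p under 0.05 (34.9%, against 28.9% of all genes tested) and 6 were lower (14%, against 14.6%). With a log2 fold change above 1 as well, 11 were higher (25.6%, against 18.4% of all genes tested), and with one below −1, 2 were lower (4.65%, against 4.64%), namely Tlr5 and Pycard. All 3 Gm31629-/- mice lay above all 3 WT mice for 17 genes (39.5%, against 36.3% of all genes tested) and below them for 10 (23.3%, against 21.5%). These shares lie near those of all genes tested, and the median log2 fold change was 0.15 over the 43 genes and 0.15 over all genes tested. By role, the genes that were higher were 4 of 6 tested endosomal Toll-like receptors, 3 of 3 genes of the C-type lectin branch, 3 of 10 inflammasome genes, 2 of 3 LPS co-receptors, 2 of 5 surface Toll-like receptors, and 1 of 7 adaptors and kinases, and the genes that were lower were 2 each of the surface Toll-like receptors, the adaptors and kinases, and the inflammasome genes. No difference between these roles was tested. Of the genes that were higher, Tlr6, Tlr7, Tlr8, Tlr9, Tlr13, Nlrp3, and Card9 had WT means under 0.5 FPKM. They met the filter through the Gm31629-/- mice, so their part in these counts depends on that group. Where a single gene is said to pass or to be called below, this refers to the adjusted p alone.

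FPKM values are not corrected for abundant transcripts that take up fragments. When libraries were rescaled by the median over genes of the ratio to the geometric mean, the log2 fold changes of all genes tested moved by a median of −0.20, and 13 sensing genes were higher and 12 were lower, in place of 15 and 6, while 24.7% of all genes tested were then higher and 24.8% lower. With the threshold on fold change as well, 7 were higher and 5 lower after rescaling, in place of 11 and 2 (15.2% and 8.3% of all genes tested). The number higher with the threshold on fold change was 6 without Gm31629-/- mouse 2 and 7 without WT mouse 3, in place of 11 (17.1% and 15.6% of all genes tested). The number lower with that threshold was 4 without Gm31629-/- mouse 1 and 4 without Gm31629-/- mouse 2, in place of 2 (5.23% and 4.69% of all genes tested). At the adjusted p alone, 9 genes were higher without WT mouse 2 and 8 without WT mouse 3, in place of 15, with 22.3% and 19.1% of all genes tested. A log2 fold change of FPKM + 1 understates the change of genes with low FPKM, and for any single gene 3 mice against 3 cannot reach an exact permutation p under 0.1.

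**Figure D1:**
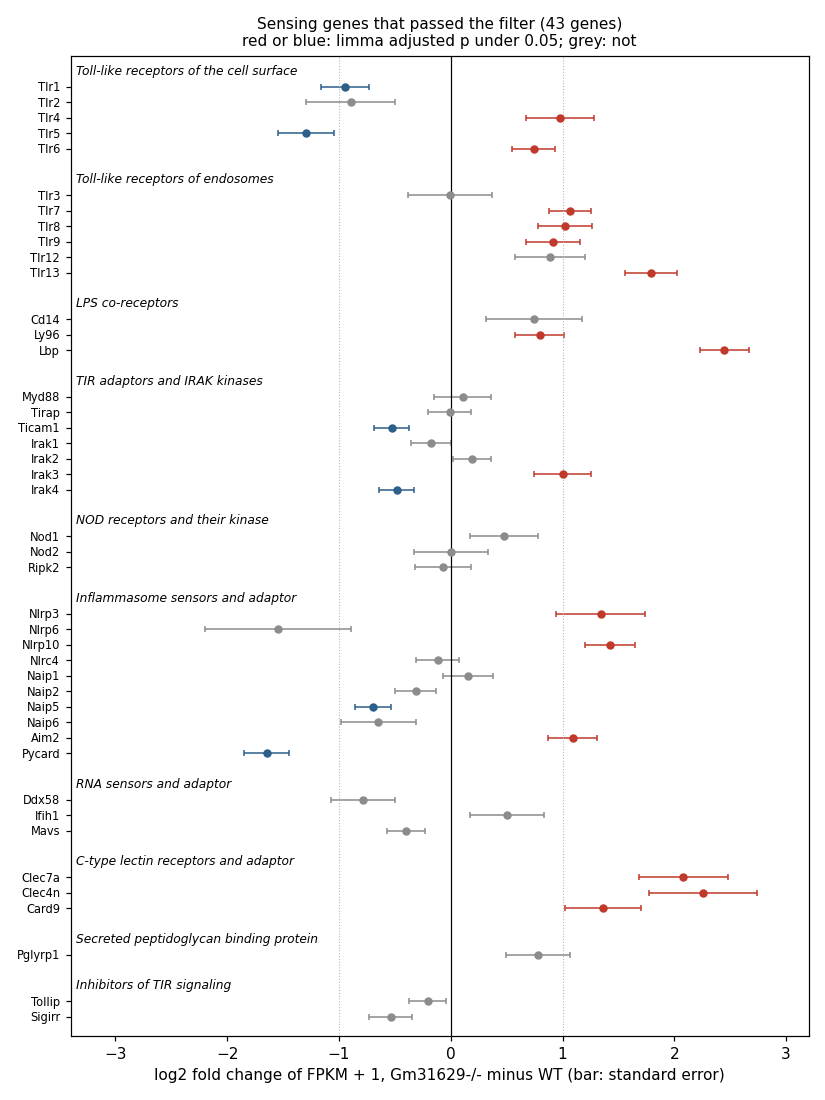
Log2 fold change of FPKM + 1 (horizontal axis, Gm31629-/- minus WT, n = 3 mice each) of the 43 sensing genes that passed the filter, grouped by role, with bars for the standard error. Red points mark the 15 genes that were higher and blue points the 6 that were lower at a limma adjusted p under 0.05, and grey points mark the rest.

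The recovered depth was 18005900 to 18795100 mapped fragments per library. Gm31629 has no row in the table, so the genotype labels could not be checked against its level. The library of Gm31629-/- mouse 1 held transcripts of Y-linked genes and almost none of Xist, with the reverse in the other 5, which concerns the X-linked genes Tlr7, Tlr8, Tlr13, and Irak1. The methods describe the mice as male, which those other 5 libraries do not match. No WT library held Y-linked transcripts, and sex was not part of the fit. Gm31629-/- mouse 2 had the highest of the 6 values for 21 of the 43 sensing genes (48.8%), against 28.9% of all genes tested.

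Markers of several cell types differed between the groups along with the sensing genes. The counts of markers below use the adjusted p alone, by which 28.9% of all genes tested were higher and 14.6% were lower. Of the macrophage markers (led by Lyz2 and C1qa), 11 of 12 were higher in Gm31629-/- mice, with a summed FPKM of 607 to 1321 against 69.0 to 88.4 in WT mice. Of the neutrophil markers (led by Ly6g and S100a9), 9 of the 10 tested were higher, with sums of 521 to 1041 against 72.4 to 131. Most of each sum was Ly6g, at 288, 596, and 965 FPKM in Gm31629-/- mice 1 to 3. In WT mice 1 to 3 Ly6g stood at 66.7, 121, and 80.8 FPKM. S100a9 had 120, 77.2, and 35.0 FPKM in Gm31629-/- mice 1 to 3 and 2.07, 4.04, and 2.85 FPKM in WT mice. The order of the Gm31629-/- mice thus differed between these markers. Elane was at 0 in all 3 WT mice and Gm31629-/- mouse 3, and Mpo was at 0 in every mouse but Gm31629-/- mouse 2. Markers of dendritic cells (Ccr7, Itgax) were higher for 2 of 2 tested, with sums of 13.0 to 31.4 against 2.03 to 2.22. Among lymphocyte markers, 5 of 6 tested for B cells (Cd79a, Cd79b) were higher, with sums of 20.3 to 66.9 against 3.00 to 5.02. Of those for T cells, 4 of 7 tested were higher, with sums of 14.2 to 25.9 against 6.12 to 9.70. The most abundant T cell markers, Lck and Cd8a, were not among them (limma adjusted p = 0.123 and 0.621). Colon epithelium markers (Krt8, Car1) were lower for 9 of 15, with sums of 8425 to 11242 against 17035 to 19038, although Epcam and Cdh1 had log2 fold changes of 0.01 and −0.04 that did not pass. The sharpest contrast of these lists was in smooth muscle, with 11 of 11 tested markers (Acta2, Myl9) higher and sums of 1581 to 2569 against 15.8 to 42.9. Fibroblast (Col6a1, Col3a1) and endothelial (Plvap, Pecam1) markers were higher for 8 of 8 each, with sums of 249 to 721 against 22.1 to 45.001 and of 96.6 to 284 against 8.44 to 19.6. Enteric neuron and glia markers (Vip, Prph) were higher for 11 of 12, with sums of 66.8 to 275 against 2.91 to 5.51, and Elavl4 was at 0 in all 3 WT mice. Vip and Prph had WT means of 0.0159 and 0.0190 FPKM. These and other tested markers with WT means under 0.5 FPKM met the filter through the Gm31629-/- mice. Adipocyte (Cidec, Fabp4) and erythrocyte (Hbb-bs, Hba-a1) markers were higher for 4 of 5 and 3 of 5 tested, with sums of 57.6 to 137 against 10.1 to 20.6 and of 144 to 3006 against 38.1 to 141. Hbb-bs itself did not pass (limma adjusted p = 0.0583). In bulk tissue, a different number of cells of a type, a different amount of RNA per cell, and a difference in the tissue layers sampled cannot be told apart. The part of these differences in the results on the sensing genes was not tested.

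**Figure D2:**
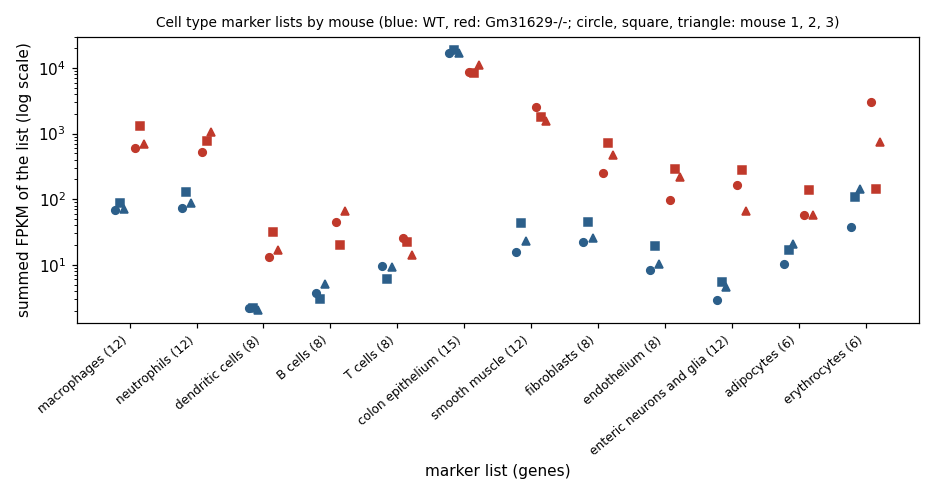
Summed FPKM (vertical axis, log scale) of 12 cell type marker lists in each mouse, with the number of genes per list in parentheses. The 3 Gm31629-/- mice (red) lie above the 3 WT mice (blue) in each list except the colon epithelium, where they lie below.

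Receptors at the cell surface split by gene. TLR2 pairs with TLR1 or TLR6 to bind bacterial lipoproteins, TLR4 binds LPS, and TLR5 binds flagellin, the protein of bacterial flagella. Tlr1 and Tlr5 were lower in Gm31629-/- mice and Tlr4 and Tlr6 were higher, while Tlr2 did not pass. In the lists of values that follow, the mice are in the order 1 to 3, and gene positions are from GENCODE M21 on GRCm38.

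Tlr1 (ENSMUSG00000044827, chromosome 5, 64924679 to 64933563) measured 39.0, 33.5, and 36.0 FPKM in WT mice and 23.5, 13.3, and 19.6 FPKM in Gm31629-/- mice. All 3 Gm31629-/- mice lay below the WT mice, with means of 18.8 ± 5.14 and 36.2 ± 2.75 FPKM (SD, n = 3 each). This was a log2 fold change of −0.94 (limma SE 0.21, adjusted p = 0.0115), where SE is the standard error of the fit. Its neighbor on the same strand, Tlr6 (ENSMUSG00000051498, chromosome 5, 64952031 to 64960097), went the other way. Tlr6 had 0.116, 0.179, and 0.271 FPKM in WT mice and 0.817, 1.53, and 0.701 FPKM in Gm31629-/- mice, or a log2 fold change of 0.74 (limma SE 0.19, adjusted p = 0.019). The 2 genes are 18.5 kb apart, and their FPKM values, which are per length, differed by a ratio of 336, 187, and 133 in WT mice and of 28.7, 8.69, and 27.9 in Gm31629-/- mice. The ratio, formed after the opposite directions were seen, describes them and was not tested. Tlr6 reached the minimum mean through the Gm31629-/- mice. It lost its call when a WT mouse was left out, with adjusted p = 0.0679, 0.0567, and 0.0536 without WT mouse 1, 2, or 3. Of all 50-base windows of the Tlr6 transcripts, 12.3% also lie in transcripts of another gene, mainly Tlr1. For the Tlr1 transcripts the share is 15.4%, mainly with Tlr6. Reads from windows shared by the pair could be split between the 2 genes.

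Tlr2 (ENSMUSG00000027995, chromosome 3, 83836272 to 83841767) encodes the shared partner. It stood at 29.6, 26.3, and 36.3 FPKM in WT mice and 17.2, 28.4, and 8.07 FPKM in Gm31629-/- mice, where mouse 2 lay within the WT range and mouse 3 was lowest. Its log2 fold change was −0.89 (limma SE 0.40, adjusted p = 0.108). Without Gm31629-/- mouse 2 it passed (adjusted p = 0.0212), and so it did after rescaling by the median ratio (adjusted p = 0.0374).

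For these lipoprotein receptors, the sequence around the RefSeq transcription start (250 bases before and 50 bases after it, on the strand of the gene, 5′ to 3′, GRCm38.p6) is shown because the genes of the alternative partners of TLR2 moved in opposite directions. Capitals mark matches on either strand to GAGGAAGT, a PU.1 motif, in Tlr1, to GGGANTTCC, an NF-κB motif, and AAANNGAAA, an interferon response motif, in Tlr2, and to AAANNGAAA in Tlr6. RefSeq gives a pair of starts each for Tlr1 and Tlr6, and the windows with a match are shown.
Tlr1, chr5:64933509-64933808, minus strand: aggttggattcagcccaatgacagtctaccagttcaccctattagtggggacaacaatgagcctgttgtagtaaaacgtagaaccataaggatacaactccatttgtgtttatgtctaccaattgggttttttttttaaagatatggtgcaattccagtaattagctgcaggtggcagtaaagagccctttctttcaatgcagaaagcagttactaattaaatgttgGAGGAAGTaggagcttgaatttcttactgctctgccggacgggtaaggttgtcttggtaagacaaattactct
Tlr2, chr3:83841559-83841858, minus strand: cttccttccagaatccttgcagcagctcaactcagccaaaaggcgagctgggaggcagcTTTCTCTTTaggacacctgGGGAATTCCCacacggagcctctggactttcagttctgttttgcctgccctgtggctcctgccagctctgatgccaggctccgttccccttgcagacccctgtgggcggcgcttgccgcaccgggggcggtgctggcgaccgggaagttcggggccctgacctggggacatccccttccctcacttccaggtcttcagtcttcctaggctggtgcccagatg
Tlr6, chr5:64959117-64959416, minus strand: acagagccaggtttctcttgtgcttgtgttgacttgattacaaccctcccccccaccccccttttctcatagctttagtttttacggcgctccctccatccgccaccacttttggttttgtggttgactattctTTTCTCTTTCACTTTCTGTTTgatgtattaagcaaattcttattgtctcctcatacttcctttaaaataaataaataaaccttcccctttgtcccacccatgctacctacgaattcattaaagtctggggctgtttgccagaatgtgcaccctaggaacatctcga
The 3 matches in the Tlr6 window overlap in 1 run, and those to GGGANTTCC in the Tlr2 window are 1 palindromic stretch read on both strands. AAANNGAAA occurs in 10.55% of the 32851 promoter windows of that length, GAGGAAGT in 3.2%, and GGGANTTCC in 1.68%. A match describes the letters of a window and is not evidence of binding.

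Tlr4 (ENSMUSG00000039005, chromosome 4, 66827584 to 66930284) was low in WT mice, at 3.25, 2.08, and 1.52 FPKM, and stood at 5.68, 7.68, and 3.34 FPKM in Gm31629-/- mice. Its groups did not overlap, but Gm31629-/- mouse 3 and WT mouse 1 nearly met, at 3.34 and 3.25 FPKM. On the tested scale the difference was 0.98 (limma SE 0.30, adjusted p = 0.0366). The call was lost without Gm31629-/- mouse 1 (adjusted p = 0.0787) or 2 (0.0913), without WT mouse 2 (0.096) or 3 (0.131), and after rescaling by the median ratio (0.0589).

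Tlr5 (ENSMUSG00000079164, chromosome 1, 182954788 to 182976044) showed the largest fall of the Toll-like receptors as deposited. It had 2.13, 3.92, and 3.35 FPKM in WT mice and 1.16, 0.566, and 0.352 FPKM in Gm31629-/- mice, without overlap. The mean was 4.53 times as high in WT mice, and the log2 fold change was −1.29 (limma SE 0.25, adjusted p = 0.00644). The call held when any single mouse was left out. Of the epithelial markers described above, 9 of 15 were lower in the same mice (14.6% of all genes tested were) and the others did not pass. The part of these markers was not tested.

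**Figure D3:**
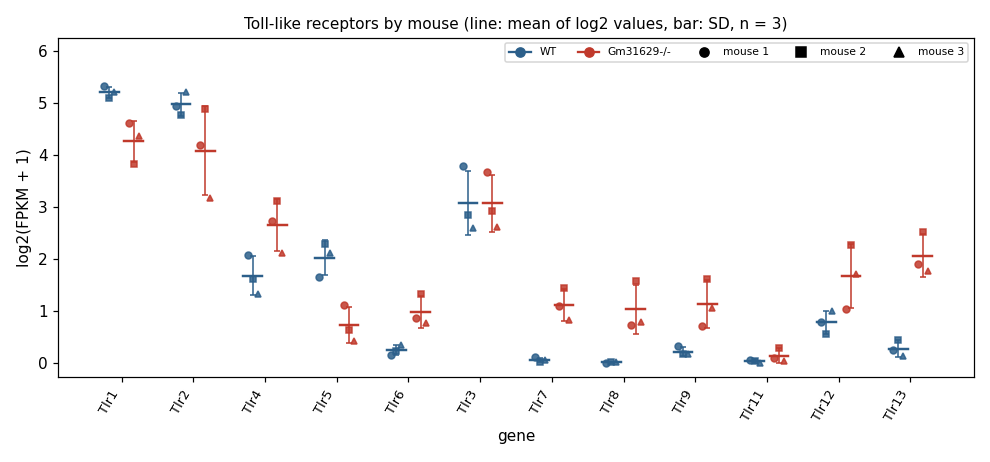
Toll-like receptor genes as log2(FPKM + 1) (vertical axis) in each of the 3 WT (blue) and 3 Gm31629-/- (red) mice, with lines for the mean of the log2 values and bars for the SD. Tlr1 and Tlr5 lie lower in the 3 Gm31629-/- mice, Tlr13, Tlr7, Tlr8, and Tlr9 lie near 0 in WT mice and higher in Gm31629-/- mice, and Tlr3 overlaps.

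Endosomal Toll-like receptors, which bind nucleic acids and, for TLR11 and TLR12, profilin of protozoa, were higher or did not pass, and none was lower. Of the 6 tested, 4 rose: Tlr7, Tlr8, Tlr9, and Tlr13. These 4 genes had few fragments in WT mice. The sum of their FPKM was 0.513, 0.524, and 0.280 in WT mice compared with 5.21, 10.6, and 5.01 in Gm31629-/- mice. They reached the minimum mean through the Gm31629-/- mice, and the sum, over genes chosen because they rose, was not tested.

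Tlr7 (ENSMUSG00000044583, chromosome X, 167304929 to 167330558) encodes a receptor for single-stranded RNA. Recovered fragments, which show the counts behind the values, numbered 85, 130, and 59 in Gm31629-/- mice against 6, 1, and 3 in WT mice, or 1.13, 1.73, and 0.787 against 0.0795, 0.0136, and 0.0391 FPKM. All Gm31629-/- values lay above the WT values, and the log2 fold change was 1.06 (limma SE 0.19, adjusted p = 0.00464). Tlr8 (ENSMUSG00000040522, chromosome X, 167242696 to 167264329), its neighbor 40.6 kb away, encodes another receptor for RNA. Gm31629-/- mice had 44, 132, and 48 fragments of it and WT mice 0, 1, and 1, and a count of 0 allows up to 3 fragments. Its FPKM reached 0.667, 1.99, and 0.729 in Gm31629-/- mice, with mouse 2 far above the others. Tlr8 thus had a log2 fold change of 1.02 (limma SE 0.24, adjusted p = 0.014), and without WT mouse 3 the adjusted p was 0.0524.

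Tlr13 (ENSMUSG00000033777, chromosome X, 106143204 to 106160493), which encodes a receptor for bacterial ribosomal RNA, showed the largest rise of the Toll-like receptors on the tested scale. WT mice had 0.185, 0.367, and 0.104 FPKM and Gm31629-/- mice 2.77, 4.77, and 2.40 FPKM, a mean 15.1 times as high. The log2 fold change was 1.79 (limma SE 0.23, adjusted p = 0.00149), and it passed without any single mouse. Tlr7, Tlr8, and Tlr13 are on the X chromosome, and their values in Gm31629-/- mouse 1, the library with Y-linked transcripts, lay between those of the other Gm31629-/- mice or were the lowest of them.

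Tlr9 (ENSMUSG00000045322, chromosome 9, 106222598 to 106226883) encodes a receptor for unmethylated CpG DNA. It had 0.249, 0.128, and 0.122 FPKM in WT mice and 0.641, 2.09, and 1.10 FPKM in Gm31629-/- mice, and the groups did not overlap. This corresponds to a log2 fold change of 0.92 (limma SE 0.24, adjusted p = 0.0205). Leaving out a WT mouse ended the call, with adjusted p = 0.0525, 0.0618, and 0.0748 without WT mouse 1, 2, or 3.

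Tlr3, which encodes a receptor for double-stranded RNA, was the most abundant of the endosomal group. Its values of 12.8, 6.22, and 5.10 FPKM in WT mice and 11.8, 6.56, and 5.15 FPKM in Gm31629-/- mice overlapped almost completely (log2 fold change −0.01 (limma SE 0.38, adjusted p = 0.988)). Tlr12 measured 0.732, 0.472, and 1.00 FPKM in WT mice and 1.06, 3.82, and 2.28 FPKM in Gm31629-/- mice. Its groups did not overlap, although Gm31629-/- mouse 1 was just above WT mouse 3, and its log2 fold change of 0.89 (limma SE 0.31, adjusted p = 0.0542) passed without Gm31629-/- mouse 1 (adjusted p = 0.0091). Tlr11 was not tested, with 4, 14, and 2 fragments in Gm31629-/- mice against 3, 2, and 0 in WT mice. Macrophage and dendritic cell markers were higher in the same mice as the 4 endosomal receptors that rose, and their part was not tested.

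The proteins that carry LPS to TLR4 were encoded by genes that rose or did not pass. LBP transfers LPS in body fluids to CD14, and LY96 (also known as MD-2) is the subunit of TLR4 that holds it. Lbp (ENSMUSG00000016024, chromosome 2, 158306493 to 158332852) had 1.09, 1.00, and 0.407 FPKM in WT mice and 8.10, 10.8, and 7.89 FPKM in Gm31629-/- mice. The groups did not overlap, the mean was 10.7 times as high in Gm31629-/- mice, and the log2 fold change of 2.45 (limma SE 0.22, adjusted p = 0.00041) was the largest of all sensing genes on this scale. With a pseudocount of 0.1 that of Tlr13 was larger (3.44 against 3.36), and with voom on recovered fragments those of Tlr8 (5.99), Tlr7 (4.75), and Tlr13 (4.02) were larger than that of Lbp (3.53). The call held without any single mouse.

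Ly96 measured 2.22, 1.96, and 1.15 FPKM in WT mice and 3.19, 4.72, and 3.47 FPKM in Gm31629-/- mice, without overlap. Its log2 fold change was 0.80 (limma SE 0.22, adjusted p = 0.0234). The adjusted p was 0.0589 without Gm31629-/- mouse 2, 0.0523 without WT mouse 2, 0.0863 without WT mouse 3, and 0.0516 after rescaling by the median ratio. Cd14 was already at 48.1, 37.0, and 41.6 FPKM in WT mice and stood at 41.7, 148, and 57.4 FPKM in Gm31629-/- mice. Only mouse 2 was far above the WT range, mouse 1 lay within it, and the log2 fold change was 0.74 (limma SE 0.43, adjusted p = 0.196).

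Among the TIR adaptors and IRAK kinases, of which 7 were tested, 1 was higher and 2 were lower. MYD88 is the adaptor of most Toll-like receptors, and its gene measured 23.9, 15.7, and 20.6 FPKM in WT mice and 16.4, 29.8, and 19.7 FPKM in Gm31629-/- mice. The groups overlapped, with mouse 2 highest, and the log2 fold change was 0.10 (limma SE 0.25, adjusted p = 0.758). TIRAP links TLR2 and TLR4 to MYD88, and its gene had 4.42, 5.53, and 4.44 FPKM in WT mice and 3.91, 6.12, and 4.40 FPKM in Gm31629-/- mice. These values overlapped too (log2 fold change −0.01 (limma SE 0.19, adjusted p = 0.973)).

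Ticam1 (ENSMUSG00000047123, chromosome 17, 56269319 to 56276786), which encodes the adaptor TRIF of TLR3 and TLR4, fell. It had 25.0, 30.0, and 27.8 FPKM in WT mice and 19.9, 15.9, and 21.01 FPKM in Gm31629-/- mice, all below the WT values, and its log2 fold change was −0.53 (limma SE 0.16, adjusted p = 0.031). The difference no longer passed without Gm31629-/- mouse 2 (adjusted p = 0.0637) or without WT mouse 1 (0.0566), 2 (0.0992), or 3 (0.1). Ticam2, which encodes the bridging adaptor TRAM between TLR4 and TRIF, was too low to be tested. Its fragments numbered 16, 38, and 31 in Gm31629-/- mice against 0, 0, and 1 in WT mice, and 14.8% of its 50-base windows are shared with other genes, mainly its neighbor Tmed7.

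IRAK4 is the first kinase bound by MYD88, IRAK1 and IRAK2 act after it, and IRAK3 (also known as IRAK-M) restrains the cascade. Irak3 (ENSMUSG00000020227, chromosome 10, 120141648 to 120202130) rose, from 1.54, 0.891, and 1.75 FPKM in WT mice to 2.72, 5.45, and 3.44 FPKM in Gm31629-/- mice. The groups did not overlap, and the log2 fold change was 1.00 (limma SE 0.26, adjusted p = 0.018), with an adjusted p of 0.0614 without WT mouse 2. Irak4 fell, from 13.5, 14.6, and 13.4 FPKM in WT mice to 8.19, 11.3, and 9.51 FPKM in Gm31629-/- mice, or a log2 fold change of −0.48 (limma SE 0.16, adjusted p = 0.0406). That call was near the threshold and was lost when any 1 mouse other than Gm31629-/- mouse 2 was left out, with adjusted p from 0.0818 to 0.118.

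Irak1 and Irak2 did not pass. Irak1 had 12.1, 11.6, and 14.1 FPKM in WT mice and 9.67, 13.9, and 9.85 FPKM in Gm31629-/- mice (log2 fold change −0.18 (limma SE 0.18, adjusted p = 0.44)). Irak2 had 13.8, 12.1, and 11.6 FPKM in WT mice and 11.6, 15.3, and 16.5 FPKM in Gm31629-/- mice (log2 fold change 0.19 (limma SE 0.17, adjusted p = 0.391)). Both overlapped between the groups, so that of the MYD88 branch the adaptor and the middle kinases showed no detectable difference at 3 mice a group.

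**Figure D4:**
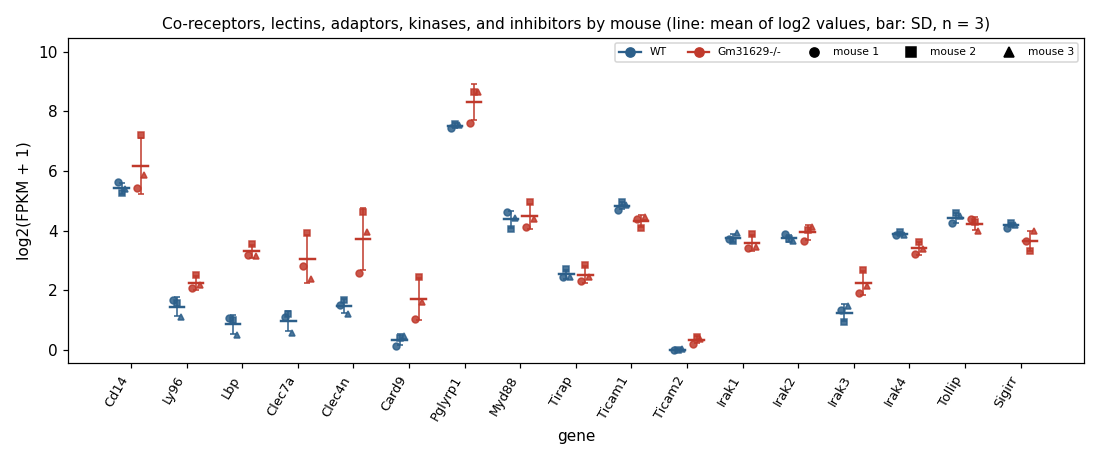
Co-receptors, lectin receptors, peptidoglycan recognition protein, adaptors, kinases, and inhibitors as log2(FPKM + 1) (vertical axis) in each of the 3 WT (blue) and 3 Gm31629-/- (red) mice, with lines for the mean of the log2 values and bars for the SD. Lbp, Clec7a, Clec4n, and Card9 separate by genotype, and Myd88, Tirap, Irak1, Irak2, and Tollip overlap.

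The NOD receptors and their kinase RIPK2 gave no call. Nod1 measured 7.31, 2.81, and 4.62 FPKM in WT mice and 5.84, 8.88, and 6.09 FPKM in Gm31629-/- mice (log2 fold change 0.48 (limma SE 0.30, adjusted p = 0.237)). Nod2, which responds to muramyl dipeptide and is a risk gene in Crohn disease, had 1.95, 1.58, and 1.77 FPKM in WT mice and 0.845, 3.72, and 1.44 FPKM in Gm31629-/- mice. WT mice were close together while the Gm31629-/- mice lay on both sides of them, with mouse 2 highest and mouse 1 lowest, and the log2 fold change was 0.00 (limma SE 0.33, adjusted p = 0.995). Ripk2 had 6.09, 3.69, and 4.65 FPKM in WT mice and 4.19, 6.35, and 3.25 FPKM in Gm31629-/- mice (log2 fold change −0.07 (limma SE 0.25, adjusted p = 0.838)).

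Inflammasome genes went in both directions. Of 10 tested, Nlrp3, Nlrp10, and Aim2 were higher, and Pycard and Naip5 were lower. Nlrp3 reached the minimum mean through the Gm31629-/- mice. Pycard (ENSMUSG00000030793, chromosome 7, 127989708 to 127993867), the adaptor that most of these sensors share, had 14.7, 13.3, and 14.1 FPKM in WT mice and 4.36, 2.62, and 4.66 FPKM in Gm31629-/- mice. The values of each group were close together, with means of 14.0 ± 0.677 and 3.88 ± 1.10 FPKM (SD, n = 3 each), 3.61 times as high in WT mice. The log2 fold change was −1.65 (limma SE 0.20, adjusted p = 0.00117), the lowest adjusted p among the sensing genes that fell, and the call held without any single mouse. Of its 50-base windows, 11.7% are shared with other genes, mainly the overlapping Gm45205, and the library kit does not mark the strand.

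Nlrp6 (ENSMUSG00000038745, chromosome 7, 140920902 to 140929192), a sensor known for its role in the colonic epithelium and its mucus, was the second most abundant sensing gene in WT mice. WT mice had 144, 111, and 136 FPKM and Gm31629-/- mice 82.4, 12.6, and 78.0 FPKM. All Gm31629-/- mice lay below the WT mice, but mouse 2 stood far below the other two. With this spread the log2 fold change of −1.55 (limma SE 0.66, adjusted p = 0.0947) did not pass. Without Gm31629-/- mouse 2 the difference passed (adjusted p = 0.0179), and its log2 fold change was then −0.69.

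The start regions of these 2 genes are printed because they are the 2 inflammasome genes of largest downward fold change. Capitals mark TGANTCA, an AP-1 motif, in Nlrp6 and GAGGAAGT, the PU.1 motif, in Pycard, on either strand.
Nlrp6, chr7:140920652-140920951, plus strand: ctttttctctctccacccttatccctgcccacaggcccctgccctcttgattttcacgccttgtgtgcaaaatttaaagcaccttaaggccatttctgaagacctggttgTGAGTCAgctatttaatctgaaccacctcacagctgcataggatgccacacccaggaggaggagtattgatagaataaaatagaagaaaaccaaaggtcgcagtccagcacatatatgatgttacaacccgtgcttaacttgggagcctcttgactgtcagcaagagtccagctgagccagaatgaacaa
Pycard, chr7:127993818-127994117, minus strand: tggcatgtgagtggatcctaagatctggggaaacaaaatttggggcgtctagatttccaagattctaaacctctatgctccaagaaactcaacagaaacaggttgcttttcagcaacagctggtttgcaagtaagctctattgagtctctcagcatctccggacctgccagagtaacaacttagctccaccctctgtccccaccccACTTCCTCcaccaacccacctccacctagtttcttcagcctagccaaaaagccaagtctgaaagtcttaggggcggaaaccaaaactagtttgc
TGANTCA is present in 7.81% of the promoter windows. Neither of these windows holds GGGANTTCC or AAANNGAAA, which says only that those letters are not in them.

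Nlrp3 (ENSMUSG00000032691, chromosome 11, 59541568 to 59566956), the sensor of ion efflux and membrane damage, had 0.187, 0.164, and 0.131 FPKM in WT mice and 0.897, 4.85, and 1.29 FPKM in Gm31629-/- mice. Mouse 2 was several times higher than the other Gm31629-/- mice, and all 3 lay above the WT mice. The log2 fold change was 1.34 (limma SE 0.40, adjusted p = 0.031), and the adjusted p was 0.0803, 0.0781, and 0.0956 without WT mouse 1, 2, or 3. Nlrp3 was highest and Nlrp6 lowest in Gm31629-/- mouse 2. The ratio of Nlrp6 to Nlrp3 FPKM was 772, 676, and 1039 in WT mice compared with 91.8, 2.60, and 60.6 in Gm31629-/- mice. This ratio was formed after the values were seen and was not tested.

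Nlrp10 (ENSMUSG00000049709, chromosome 7, 108921852 to 108930178), a member of the NLR family without leucine-rich repeats, had 0.828, 0.543, and 0.449 FPKM in WT mice and 4.57, 3.25, and 2.33 FPKM in Gm31629-/- mice. It was one of 2 sensing genes that rose with their highest value in Gm31629-/- mouse 1, and its log2 fold change was 1.42 (limma SE 0.22, adjusted p = 0.00301). Aim2 (ENSMUSG00000037860, chromosome 1, 173350879 to 173466040), the other, encodes a sensor of double-stranded DNA in the cytosol. Aim2 measured 9.68, 10.3, and 6.85 FPKM in WT mice and 23.7, 21.4, and 15.5 FPKM in Gm31629-/- mice, all above the WT values, with a log2 fold change of 1.09 (limma SE 0.22, adjusted p = 0.00715). Nlrp10 and Aim2 passed without any single mouse, although the log2 fold change of Aim2 was then below 1 without Gm31629-/- mouse 1 (0.97) and without WT mouse 3 (0.93).

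NAIP proteins bind bacterial proteins in the cytosol and activate NLRC4: NAIP1 the needle protein and NAIP2 the inner rod protein of type III secretion systems, and NAIP5 and NAIP6 flagellin. Their genes lie side by side on chromosome 13, all on the minus strand. Naip5 (ENSMUSG00000071203, chromosome 13, 100211739 to 100246323) fell, from 17.6, 22.0, and 18.4 FPKM in WT mice to 13.5, 10.4, and 10.9 FPKM in Gm31629-/- mice, or a log2 fold change of −0.69 (limma SE 0.16, adjusted p = 0.0132) that held without any single mouse. Naip6 had 14.2, 18.8, and 12.3 FPKM in WT mice and 15.9, 6.05, and 7.68 FPKM in Gm31629-/- mice. Mouse 1 lay within the WT range, and the log2 fold change of −0.65 (limma SE 0.33, adjusted p = 0.152) passed without it (adjusted p = 0.0126).

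Naip1 was the most abundant of the 4 genes, with 50.2, 64.9, and 39.4 FPKM in WT mice and 67.5, 46.5, and 56.5 FPKM in Gm31629-/- mice (log2 fold change 0.15 (limma SE 0.22, adjusted p = 0.607)). Naip2 had 28.2, 31.9, and 21.5 FPKM in WT mice and 19.5, 24.6, and 20.4 FPKM in Gm31629-/- mice (log2 fold change −0.31 (limma SE 0.18, adjusted p = 0.204)), and it passed only after rescaling by the median ratio (adjusted p = 0.0437). The 4 genes share stretches of sequence. Of their 50-base windows, 31.5% in Naip1, 19.1% in Naip2, 36.9% in Naip5, and 21.5% in Naip6 are found in another gene, so the split of reads among them is uncertain. Their sum was 110.2, 138, and 91.5 FPKM in WT mice and 116, 87.5, and 95.4 FPKM in Gm31629-/- mice, and it overlapped between the groups (exact permutation test, two-sided, p = 0.6). Nlrc4 had 12.4, 15.4, and 10.7 FPKM in WT mice and 12.4, 13.4, and 9.40 FPKM in Gm31629-/- mice (log2 fold change −0.12 (limma SE 0.19, adjusted p = 0.651)). Thus, of the genes for flagellin receptors, a grouping made after the values were seen, Tlr5 and Naip5 fell and Naip6 did not pass.

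**Figure D5:**
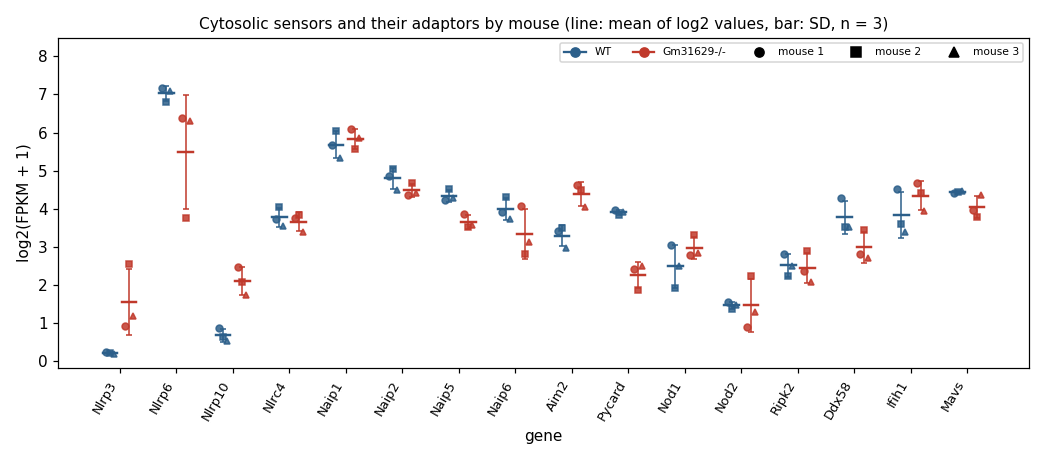
Inflammasome, NOD, and RNA sensors with their adaptors as log2(FPKM + 1) (vertical axis) in each of the 3 WT (blue) and 3 Gm31629-/- (red) mice, with lines for the mean of the log2 values and bars for the SD. Pycard and Naip5 lie lower and Nlrp10 and Aim2 higher in all 3 Gm31629-/- mice, and Gm31629-/- mouse 2 (square) is the lowest for Nlrp6 and the highest for Nlrp3.

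The cytosolic RNA sensors gave no call as deposited. DDX58 (also known as RIG-I) and IFIH1 (also known as MDA5) bind viral RNA and signal through MAVS on mitochondria. Ddx58 had 18.4, 10.4, and 10.5 FPKM in WT mice and 6.02, 9.90, and 5.51 FPKM in Gm31629-/- mice, below all WT mice, at a log2 fold change of −0.79 (limma SE 0.29, adjusted p = 0.0594). It passed without Gm31629-/- mouse 2 (adjusted p = 0.0277) and after rescaling by the median ratio (0.0212). Mavs had 20.3, 20.5, and 21.3 FPKM in WT mice and 14.6, 12.9, and 19.4 FPKM in Gm31629-/- mice, again below all WT mice (log2 fold change −0.40 (limma SE 0.17, adjusted p = 0.0977)). It passed without Gm31629-/- mouse 3 (adjusted p = 0.0262) and after rescaling (0.033). Ifih1 had 22.1, 11.2, and 9.42 FPKM in WT mice and 24.7, 20.2, and 14.2 FPKM in Gm31629-/- mice, which overlapped (log2 fold change 0.50 (limma SE 0.33, adjusted p = 0.254)).

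All 3 genes of the C-type lectin branch rose, although Card9 reached the minimum mean through the Gm31629-/- mice. CLEC7A (also known as dectin-1) binds β-glucans and CLEC4N (dectin-2) binds mannans of fungal cell walls, and CARD9 relays their signal. Clec7a (ENSMUSG00000079293, chromosome 6, 129461591 to 129472779) had 1.17, 1.28, and 0.484 FPKM in WT mice and 6.02, 14.2, and 4.21 FPKM in Gm31629-/- mice, without overlap, a mean 8.33 times as high. Its log2 fold change was 2.08 (limma SE 0.40, adjusted p = 0.00625). Clec4n (ENSMUSG00000023349, chromosome 6, 123229843 to 123247021) had 1.87, 2.19, and 1.31 FPKM in WT mice and 5.01, 23.9, and 14.4 FPKM in Gm31629-/- mice. Mouse 1 was the lowest Gm31629-/- mouse but still above the WT mice, and the log2 fold change was 2.26 (limma SE 0.48, adjusted p = 0.00919). Card9 (ENSMUSG00000026928, chromosome 2, 26352176 to 26360918) had 0.0943, 0.315, and 0.394 FPKM in WT mice and 1.07, 4.42, and 2.07 FPKM in Gm31629-/- mice, with mouse 2 highest. Its log2 fold change was 1.37 (limma SE 0.34, adjusted p = 0.0166), and the adjusted p was 0.0605 without WT mouse 1 and 0.0503 without WT mouse 3, whereas the calls on both receptors held without any single mouse. Macrophage and neutrophil markers were higher in the same mice, and their part was not tested.

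Pglyrp1, which encodes a secreted protein that binds bacterial peptidoglycan, was the most abundant sensing gene in both groups. It measured 173, 191, and 186 FPKM in WT mice and 195, 405, and 396 FPKM in Gm31629-/- mice. Mice 2 and 3 were far above the WT mice and mouse 1 only just above the highest of them. The log2 fold change was 0.78 (limma SE 0.29, adjusted p = 0.0642), and without Gm31629-/- mouse 1 it passed (adjusted p = 0.00225).

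The inhibitors TOLLIP and SIGIRR, which damp TIR signaling in the epithelium, gave no call as deposited. Tollip had 18.1, 23.0, and 21.2 FPKM in WT mice and 20.1, 18.7, and 14.9 FPKM in Gm31629-/- mice (log2 fold change −0.21 (limma SE 0.17, adjusted p = 0.344)). Sigirr had 16.2, 18.1, and 17.3 FPKM in WT mice and 11.5, 8.96, and 14.8 FPKM in Gm31629-/- mice, all below the WT mice, at a log2 fold change of −0.54 (limma SE 0.19, adjusted p = 0.0564). It passed without Gm31629-/- mouse 3 (adjusted p = 0.0213), and after rescaling by the median ratio both Sigirr (0.0229) and Tollip (0.0373) passed.

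Ordered by mean FPKM, a level per length, WT mice had Pglyrp1 first at 183 ± 9.33, then Nlrp6 at 130.4 ± 17.2, Naip1 at 51.5 ± 12.8, and Cd14 at 42.2 ± 5.57 (SD, n = 3 each). In Gm31629-/- mice Pglyrp1 was first at 332 ± 119, followed by Cd14 at 82.5 ± 57.6, Nlrp6 at 57.7 ± 39.1, and Naip1 at 56.8 ± 10.5 (SD, n = 3 each). The neighbors Cd14, Nlrp6, and Naip1 differed by less than their spread in Gm31629-/- mice, and so did Naip1 and Cd14 in WT mice. At the low end, the means of Tlr7, Tlr8, Tlr11, and Ticam2 in WT mice were all under 0.05 FPKM. Tlr5 ranked 27 of 45 in WT mice and 43 of 45 in Gm31629-/- mice, and Lbp ranked 34 and 22.

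Genes that relay or follow the signal were given from lists of their own. Of the 30 relay genes tested, 12 were higher (28.9% of all genes tested were) and 1 was lower (14.6% were), with a median log2 fold change of 0.36. The number higher was 7 without WT mouse 1 and 6 without WT mouse 3 (21.5% and 19.1% of all genes tested). None was lower without WT mouse 2 or 3 (11.2% and 6.69%), while 2 were lower without Gm31629-/- mouse 2 (13.5%). After rescaling by the median ratio 8 were higher and 3 lower (24.7% and 24.8%). The 2 largest rises were in Cd36, which encodes a scavenger receptor that assists TLR2 and TLR6, with a log2 fold change of 3.37 (limma SE 0.31, adjusted p = 0.000467), and in Tmem173, which encodes STING, with 1.89 (limma SE 0.50, adjusted p = 0.0209). Cd36 had 0.0602, 0.248, and 0.193 FPKM in WT mice and 9.23, 18.7, and 7.61 FPKM in Gm31629-/- mice. It met the filter through the Gm31629-/- mice, so its part in the count depends on that group. The 1 gene that fell was Tab1, which encodes a partner of the kinase TAK1, with a log2 fold change of −0.65 (limma SE 0.17, adjusted p = 0.0212). Traf6, which encodes the ubiquitin ligase below the IRAK kinases, had 5.99, 6.85, and 6.62 FPKM in WT mice and 5.90, 4.83, and 3.18 FPKM in Gm31629-/- mice (log2 fold change −0.44 (limma SE 0.21, adjusted p = 0.13)). Tmem173 no longer passed without Gm31629-/- mouse 3 (adjusted p = 0.0603) or WT mouse 2 (0.0683) or 3 (0.0646), nor Tab1 without WT mouse 2 (0.0702) or 3 (0.0838).

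Of 10 NF-κB and IRF transcription factor genes, 4 were higher (28.9% of all genes tested were) and 1 was lower (14.6% were). The median log2 fold change was 0.39, against 0.15 over all genes tested. The number higher was 2 without any 1 of the WT mice and after rescaling by the median ratio, with 19.1% to 22.3% and 24.7% of all genes tested. None was lower without Gm31629-/- mouse 2 or 3 or WT mouse 1 or 3, where 6.69% to 13.5% of all genes tested were. Irf5, which encodes a factor used below endosomal Toll-like receptors, rose by a log2 fold change of 2.23 (limma SE 0.31, adjusted p = 0.0019), and Rel, which encodes an NF-κB subunit, by 1.08 (limma SE 0.35, adjusted p = 0.0401). Irf8, which encodes a factor of myeloid cells, fell, with a log2 fold change of −1.07 (limma SE 0.33, adjusted p = 0.0369). Rel no longer passed without Gm31629-/- mouse 3 (adjusted p = 0.0542) or without WT mouse 1 (0.107), 2 (0.0758), or 3 (0.123), nor Irf8 without Gm31629-/- mouse 2 (0.0805) or 3 (0.114) or WT mouse 1 (0.105) or 3 (0.113).

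Of 19 tested genes that NF-κB is known to induce, 15 were higher and none was lower, with a median log2 fold change of 1.88. This compares with 28.9% higher, 14.6% lower, and a median of 0.15 over all genes tested, and the list was chosen with results of these data known. The number higher was 11 without Gm31629-/- mouse 3 or WT mouse 2 or 3 (28.8%, 22.3%, and 19.1% of all genes tested). It was 12 without Gm31629-/- mouse 2 or WT mouse 1 (26.1% and 21.5%). It was 16 without Gm31629-/- mouse 1 (28.0%) and 13 with voom on recovered fragments (29.1%). Without Gm31629-/- mouse 2, 1 gene was lower (13.5% of all genes tested were). Il6, 1 of the 15, had a WT mean of 0.0674 FPKM and met the filter through the Gm31629-/- mice. Macrophage markers (11 of 12) and neutrophil markers (9 of 10 tested) were higher in the same mice, and their part was not tested. The largest rises were in Ccl2, which encodes a chemokine for monocytes, with a log2 fold change of 3.24 (limma SE 0.56, adjusted p = 0.00436), and in Lcn2, which encodes a protein that withholds iron from bacteria, with 2.97 (limma SE 0.37, adjusted p = 0.00127). Il1b, which encodes the cytokine that inflammasomes mature, had 5.75, 5.18, and 5.52 FPKM in WT mice and 16.7, 125, and 37.6 FPKM in Gm31629-/- mice. The Gm31629-/- mice differed among themselves, with mouse 2 highest, and all lay above the WT mice, at a log2 fold change of 2.77 (limma SE 0.63, adjusted p = 0.0117). Nfkbia, which encodes the inhibitor IκBα and is itself induced by NF-κB, rose, with a log2 fold change of 0.91 (limma SE 0.18, adjusted p = 0.00683). Tnf had 15.4, 7.42, and 7.99 FPKM in WT mice and 9.22, 18.9, and 10.7 FPKM in Gm31629-/- mice, which overlapped (log2 fold change 0.31 (limma SE 0.34, adjusted p = 0.481)).

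Of the 45 sensing genes, 35 had at least 1 promoter window in the RefSeq table, 43 windows in all. AAANNGAAA occurred in windows of 12 genes (Clec7a, Ddx58, Ifih1, Myd88, Naip6, Nlrp3, Nod1, Tlr11, Tlr12, Tlr2, Tlr3, and Tlr6), 13 of 43 windows, GAGGAAGT in those of 5 (Aim2, Pycard, Tlr1, Tlr11, and Tlr9), TGANTCA in those of 2 (Nlrp6 and Tlr9), and GGGANTTCC in that of Tlr2. Of the 12 genes with AAANNGAAA, 3 rose (Clec7a, Nlrp3, and Tlr6), 8 did not pass, and Tlr11 was not tested. Of the 5 with GAGGAAGT, 2 rose (Aim2 and Tlr9), 2 fell (Pycard and Tlr1), and Tlr11 was not tested. Of the 2 with TGANTCA, Tlr9 rose and Nlrp6 did not pass, and Tlr2, with GGGANTTCC, did not pass. Over all genes tested, 28.9% were higher and 14.6% lower, and no link between a motif and a direction was tested.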

How the data were processed

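Per the labels, libraries were made with an Illumina TruSeq RNA kit, and the submitters' processing notes name HISAT2 2.1.0, HTSeq 0.6.0, and GRCm38. The deposited table holds FPKM values, scaled by the authors for gene length and depth. The methods name DEGseq, not repeated here, and describe pooled RNA, whereas the table has a column per mouse, treated here as separate mice. Symbols and positions came from GENCODE M21 (GRCm38; 27488 of 27546 identifiers matched). Fragments were recovered from FPKM and exon lengths: 96.3% to 97.3% of a library's values of 20 fragments or fewer lay within 0.1 of a whole number. A 0 allows 3 fragments, counting error only.

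Genes whose FPKM averaged at least 0.5 were compared on log2(FPKM + 1) in R 4.3.3 with limma 3.58.1 (lmFit, eBayes with a trend), tested on simulated data, with Benjamini-Hochberg adjustment over all 14657. The summed Naip FPKM had an exact permutation test (scipy 1.17.1). Figures used matplotlib 3.10.9. All 45 sensing genes are named, with the 2 called genes of largest positive and negative fold change per relay, factor, or target list, Il1b, Tnf, Nfkbia, Traf6, and the 2 most abundant genes per marker list. Members and lists were chosen with earlier results of these data known. Promoter windows came from RefSeq (GRCm38.p6). Shared 50-base windows of GENCODE transcripts were counted on both strands, chosen after the data were seen. Protein identity was not analysed here, and a value of 1 marker gene is not reported here.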

Additional observations from a re-analysis of the deposited data

How the results depend on the processing

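The alternatives used no filter, a minimum mean FPKM of 5, a pseudocount of 0.1, equal sums (TPM scale), the median ratio, eBayes without a trend, voom on recovered fragments, the replicate number as a block, and leaving out each mouse. The 21 sensing genes with an adjusted p under 0.05 kept their direction under each alternative that tested them, and 14 of them were not tested at a minimum mean of 5. Called means here past that threshold with a log2 fold change above 1 or below −1. With a minimum mean of 5, which left 25 sensing genes and 7242 genes in all, 2 sensing genes were called higher and 1 lower, 2 had an adjusted p under 0.05 and were higher, and 956 genes in all were called higher. Of those 7242 genes, 13.2% were called higher, 6.81% were called lower, and 19.4% were higher at the adjusted p alone. With the median ratio 7 sensing genes were called higher and 5 lower, 12 were lower at the adjusted p alone, and 1217 genes in all were called lower (680 as deposited). The cause of these moves was not tested for the median ratio.

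Leaving out 1 mouse gave 6 to 13 sensing genes called higher, 2 to 4 called lower, 8 to 16 higher and 4 to 8 lower at the adjusted p alone, 2285 to 2892 genes in all called higher and 513 to 766 lower, and 16 to 23 called genes in the relay, factor, and target lists. In these fits 19.1% to 28.8% of all genes tested were higher and 6.69% to 13.5% lower at the adjusted p alone. With the threshold on fold change as well, 15.6% to 19.7% of all genes tested were called higher and 3.5% to 5.23% lower. With a pseudocount of 0.1 Tlr12 passed, without a filter Nlrp3 and Tlr4 no longer passed and Ticam2 did, and on the TPM scale Irak4 did not. Voom on fragments called 15 sensing genes higher and 2 lower, with 24.9% and 6.79% of all genes tested.

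With the replicate block, 11 sensing genes were called higher and 2 lower (18.5% and 4.42% of all genes tested). At the adjusted p alone 15 were higher and 4 were lower (26.4% and 10.3%), and Irak4 (0.0683) and Ticam1 (0.0729) no longer passed. Same-numbered mice had correlations of their deviations from the group means of 0.036, −0.108, and 0.014, so the numbers were not taken to pair the samples, and not every mouse correlated best with its own number.

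Directions turned only for genes that did not pass in either fit. Log2 fold changes of Nod2 were −0.0716 with a pseudocount of 0.1, −0.16 with the median ratio, and −0.0895 with voom, of Tirap 0.0005 and of Tlr3 0.0023 on the TPM scale, and with the median ratio −0.10 for Naip1, −0.14 for Myd88, and −0.0519 for Irak2. Over the fits without 1 mouse the log2 fold change ran from −0.17 to 0.10 for Tirap, −0.31 to 0.34 for Tlr3, −0.38 to 0.30 for Nod2, −0.13 to 0.28 for Myd88, −0.29 to 0.11 for Ripk2, −0.23 to 0.0226 for Nlrc4, and −0.0228 to 0.33 for Naip1. In WT mice Tlr7, Tlr8, Tlr11, and Ticam2 rest on at most 6 fragments per mouse, which limits how well their level there is known.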
